A study of Homo sapiens with 8 samples.

Results

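Integrins are the cell surface receptors that tie a cell to its surroundings, and laminins are a main class of the proteins they hold on to. The genes described here are the 38 protein-coding genes of the RefSeq annotation (GRCh38.p14, the same assembly as hg38) that encode an integrin alpha subunit, an integrin beta subunit or a laminin chain, out of 20033 protein-coding genes on chromosomes 1 to 22, X and Y. They were taken by symbol alone, with no measured value in the rule: 26 are integrin genes and 12 are laminin genes. All 38 were found. They lie at 33 separate places, since 9 of them sit within 200 kb of another one, among them ITGAM, ITGAX and ITGAD on chromosome 16, ITGA1 and ITGA2 on chromosome 5, and LAMB1 and LAMB4 on chromosome 7.

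An integrin is a pair of 1 alpha and 1 beta subunit, and the alpha subunit largely sets which matrix protein or cell surface partner is bound. A laminin is a trimer of 1 alpha, 1 beta and 1 gamma chain that polymerises into the basement membrane under epithelia, around muscle and around vessels. Several integrins are used mainly by white blood cells or platelets, and several laminin chains mainly by particular epithelia, so that a single cell type uses only a part of the family. macroH2A1 is a variant of histone H2A with a large additional domain, and ANP32B is a histone chaperone.

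The cells were HepG2, a human hepatoblastoma line. They were transfected either with an siRNA against ANP32B (siANP32B) or with a non-targeting siRNA (siControl), each a single sequence per the labels, and were collected 3 days later. macroH2A1 was mapped by CUT&RUN, in which an antibody-bound nuclease cuts the chromatin around its target, here for 30 min, and the DNA that is released is sequenced. The cells had been cryopreserved. There were 2 anti-macroH2A1 libraries per siRNA, and 4 IgG libraries that are not analysed here. Whether the replicates were grown separately is not in the labels. Spreads and p-values here therefore describe these libraries, and the spread may be technical. None of the files measures expression, so neither the knockdown nor the liver identity of the cells could be checked here.

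The 4 lists of broad macroH2A1 domains held 7530 and 7404 domains in siANP32B libraries and 8623 and 8116 in siControl libraries. The median deposited score of a domain was 70.1 and 67.5 in siANP32B libraries and 88.9 and 97.7 in siControl libraries. Read totals are not in these files. Depth is therefore unknown for all 4 libraries, and no interval on a domain can be given. A second kind of file, the authors' deposited table of differential regions, compares siANP32B with siControl for 4474 regions.

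Integrin and laminin genes ranged from full cover to no domain at all. Calling a gene covered when at least 50% of its annotated length lay in domains, 17 of the 38 genes (44.7%) were covered in both siANP32B libraries and 12 (31.6%) in both siControl libraries. Of all 20033 protein-coding genes, 17.2% were covered in both siANP32B and 13.7% in both siControl libraries, and of the 6269 that are 50 kb or longer, as 26 of the 38 are, 12.3% and 9.28%. Of the 38 genes, 11 were covered in all 4 libraries, beside 11.5% of all protein-coding genes, and 15 stayed under 25% in all 4, beside 63.3%. The 6 genes ITGA2, ITGA4, ITGA8, ITGB1, LAMA1 and LAMA4 had no domain in any library, beside 46.9% of all protein-coding genes.

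**Figure D1:**
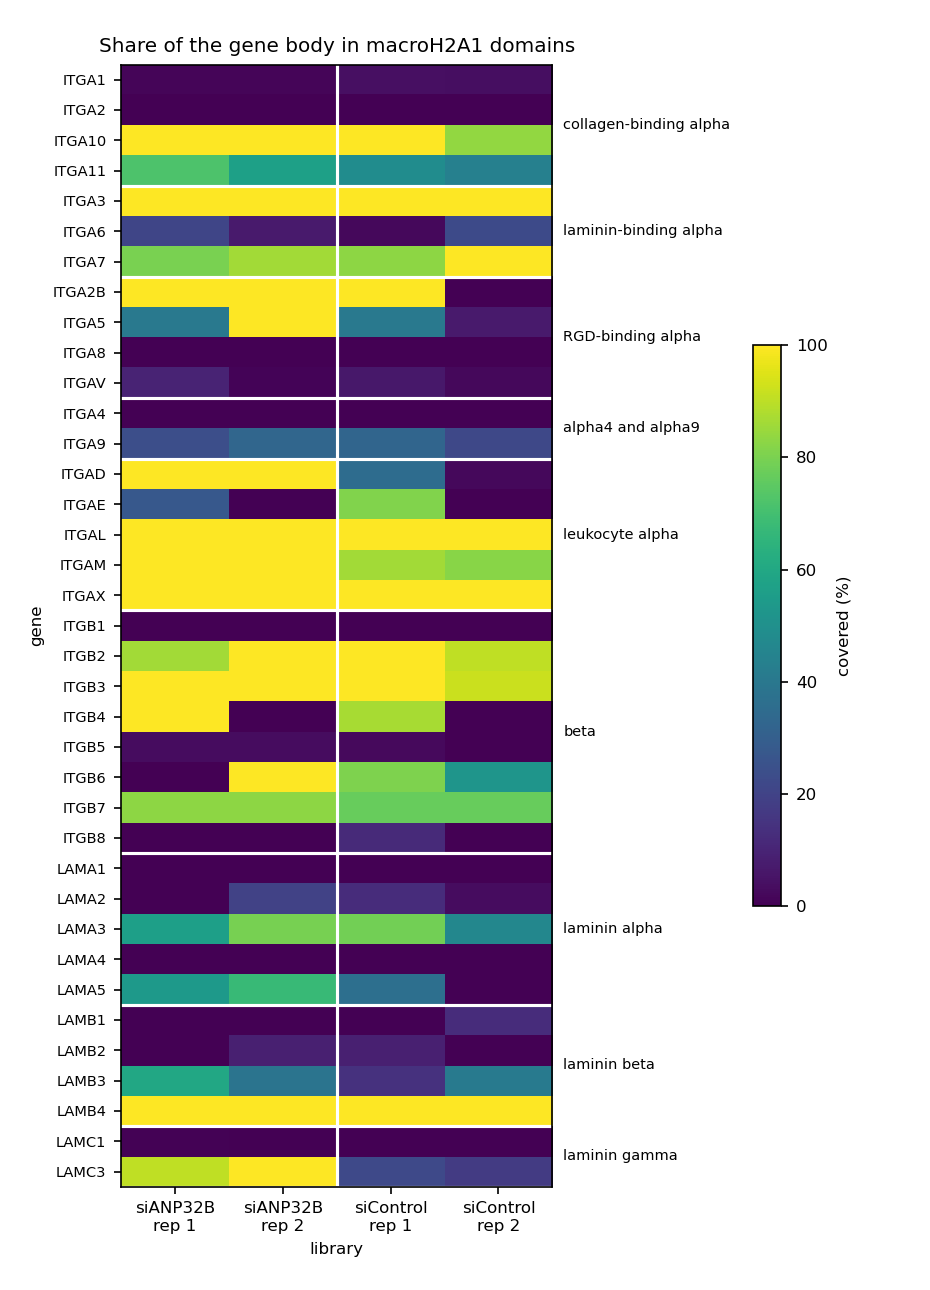
Share of each gene body (%) that lay in macroH2A1 domains in the 2 siANP32B libraries (left) and the 2 siControl libraries (right), for 37 of the integrin and laminin genes grouped by role. Yellow rows such as ITGA3, ITGAL, ITGAX and LAMB4 were covered over their whole length in all 4 libraries, and dark rows such as ITGB1 and LAMA1 had no domain in any.

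Covered genes were mostly the shorter ones. Among the 19 shorter genes (11.9 to 79.1 kb) 13 were covered in both siANP32B and 10 in both siControl libraries, and among the 19 longer genes (79.4 to 633 kb) 4 were covered in both siANP32B and 2 in both siControl libraries. For all protein-coding genes within the first length range the shares were 17.3% in both siANP32B and 14.4% in both siControl libraries, and within the second 10.8% and 7.96%. Spearman's rho between gene length and the mean covered share in siControl libraries was -0.46 over the 38 genes, against 0.02 over all protein-coding genes. This is a description across genes, which share libraries and in part domains and are not independent.

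Domains over these genes were longer than the usual domain of the same list. Their median length was 74.5 and 67 kb in siANP32B libraries and 55.5 and 51 kb in siControl libraries, where all domains of these lists had medians of 47 and 48 kb and of 38 and 39 kb. A longer domain is more likely to meet any given gene, so this is a description and not a property of the family. Along genes whose direction is known, cover thinned toward the far end. With each of the 26 such genes divided into 3 equal parts, the part next to the start was covered by 34.6% and 44.3% in siANP32B and by 40.9% and 28.2% in siControl libraries on average. The last part was covered by 28.0% and 28.4% in siANP32B and by 28.3% and 16.1% in siControl libraries. No such values over all protein-coding genes are given here, so this is not shown to be a trait of the family. Parts follow the annotated span, and the listed start of LAMA3 lies 184 kb inside it.

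Gene starts could be placed for the 26 genes with an entry in the RefSeq promoter table (build GRCh38.p14, 250 bases before the start to 50 after it). For the others, such as ITGA3, ITGA7, ITGA9, ITGAD, ITGAL, ITGAX, ITGB2, ITGB3, ITGB4, LAMA1 and LAMC3, places in the gene are given from its lower-coordinate end. Of the 26 starts, 11 lay in a domain in both siANP32B libraries and 10 in both siControl libraries, beside 22% and 17.7% of the 15842 protein-coding genes with an entry. In all 4 libraries a domain lay over 7 starts, those of ITGA6, ITGAM, ITGAV, ITGB7, LAMA3, LAMB3 and LAMB4, beside 13.8% of the protein-coding genes with an entry. Over 7 starts there was none in any library, those of ITGA2, ITGA4, ITGA8, ITGA11, ITGB1, LAMA2 and LAMA4, beside 8882 of the 15842.

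The promoter windows of these 2 sets of 7 differed in base composition. A CpG, a C followed by a G, is the site of DNA methylation and is frequent in promoters of widely expressed genes. The windows under a domain in all 4 libraries held a median of 10 CpGs (range 2 to 23) at 53.3% GC, and those without any domain a median of 27 (range 8 to 39) at 72% GC. Over all protein-coding genes with an entry the same 2 sets had medians of 15 and 22 CpGs, at 61.7% and 62% GC. The letters TATAAA, searched on both strands, were in 1 of the 7 windows under a domain (that of ITGA6), in none of the 7 without one and in 9.75% of all windows. The same 2 sets over all protein-coding genes held them in 13.5% and 9.04% of windows. These are descriptions of the windows, and no test was made.

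Shown are the windows of the 3 genes with a start under a domain in all 4 libraries and the most covered sequence, then those of the 2 longest genes with no domain over the start. They let the CpG-poor and CpG-rich windows be compared by eye, with every CpG in capitals. LAMB4 and ITGAM hold 2 CpGs each, LAMA3 13, LAMA2 10 and ITGA8 27. LAMA3, under a domain, thus holds more than LAMA2, under none. The LAMA3 start in the table is an inner one, 184 kb inside the annotated span.
LAMA3 (chr18:23872770-23873069, plus strand): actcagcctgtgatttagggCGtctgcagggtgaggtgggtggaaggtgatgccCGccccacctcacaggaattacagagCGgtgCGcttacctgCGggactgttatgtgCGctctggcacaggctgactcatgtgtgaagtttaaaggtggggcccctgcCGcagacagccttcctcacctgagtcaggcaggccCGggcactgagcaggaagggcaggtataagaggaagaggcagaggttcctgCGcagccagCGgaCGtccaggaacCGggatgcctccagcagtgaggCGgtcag
LAMB4 (chr7:108130312-108130611, minus strand): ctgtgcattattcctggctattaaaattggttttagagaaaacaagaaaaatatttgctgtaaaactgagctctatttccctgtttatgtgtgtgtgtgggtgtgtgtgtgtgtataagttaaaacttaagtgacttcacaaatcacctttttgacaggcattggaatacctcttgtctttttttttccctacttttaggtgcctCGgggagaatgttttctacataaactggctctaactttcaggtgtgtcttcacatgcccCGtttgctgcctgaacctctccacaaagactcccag
ITGAM (chr16:31259725-31260024, plus strand): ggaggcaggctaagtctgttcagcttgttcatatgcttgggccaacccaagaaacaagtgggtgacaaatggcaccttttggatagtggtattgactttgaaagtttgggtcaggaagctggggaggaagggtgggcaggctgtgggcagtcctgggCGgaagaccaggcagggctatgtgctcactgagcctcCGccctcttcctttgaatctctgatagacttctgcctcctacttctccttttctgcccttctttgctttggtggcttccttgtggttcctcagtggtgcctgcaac
LAMA2 (chr6:128882888-128883187, plus strand): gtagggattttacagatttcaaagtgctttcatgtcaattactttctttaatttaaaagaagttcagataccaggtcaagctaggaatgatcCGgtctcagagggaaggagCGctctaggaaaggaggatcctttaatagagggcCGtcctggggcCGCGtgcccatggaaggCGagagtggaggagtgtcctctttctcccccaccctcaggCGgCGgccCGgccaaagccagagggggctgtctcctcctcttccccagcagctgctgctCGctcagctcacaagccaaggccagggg
ITGA8 (chr10:15719873-15720172, minus strand): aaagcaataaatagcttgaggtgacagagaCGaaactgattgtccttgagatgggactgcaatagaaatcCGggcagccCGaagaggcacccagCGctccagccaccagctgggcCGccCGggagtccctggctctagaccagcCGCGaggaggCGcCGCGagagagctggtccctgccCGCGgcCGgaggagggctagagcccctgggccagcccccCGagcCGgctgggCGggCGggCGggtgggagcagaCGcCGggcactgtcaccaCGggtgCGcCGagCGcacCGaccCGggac

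**Figure D2:**
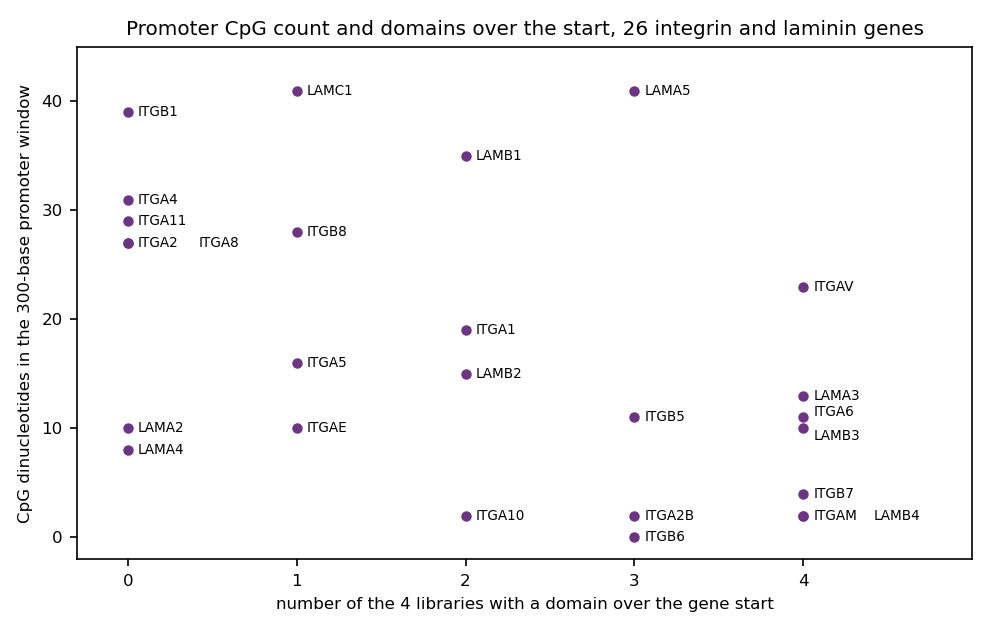
Number of CpG dinucleotides in the 300-base promoter window (vertical axis) against the number of the 4 libraries with a domain over the start (horizontal axis), 1 point per gene for the 26 genes with an entry. LAMB4, ITGAM and ITGB7 sit low at 4 libraries, ITGB1 and ITGA4 high at 0, and LAMA5, with 41 CpGs and a domain in 3 libraries, stands apart from both. ITGAV, with 23 CpGs at 4 libraries, and LAMA4, with 8 at 0, go the other way.

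Of 5 alpha genes grouped here as those of white blood cells, 4 were covered in both siANP32B libraries and 3 in both siControl libraries. Over all protein-coding genes these shares were 17.2% and 13.7%. The 5 are ITGAD, ITGAE, ITGAL, ITGAM and ITGAX. ITGA4, also used by white blood cells but grouped with ITGA9, had no domain in any library. ITGAL, which encodes the alpha subunit of LFA-1, the receptor that lets lymphocytes hold on to other cells, lay on chromosome 16 from 30472742 to 30523185 and was covered by 100% in every one of the 4 libraries, within domains of 145 and 114 kb in siANP32B and of 98 and 113 kb in siControl libraries. ITGAX, the alpha subunit of complement receptor 4, was likewise covered by 100% in all 4. ITGAM, the alpha subunit of complement receptor 3 (chromosome 16, 31259975 to 31332877), was covered by 100% in both siANP32B libraries and by 86.3% and 82.2% in siControl libraries. Its beta partner gene ITGB2 on chromosome 21 was covered by 86.0% and 100% in siANP32B and by 100% and 90.6% in siControl libraries. ITGB2 thus stayed covered in each library, and its groups overlapped.

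ITGAD, whose product also pairs with the ITGB2 product, had the widest gap between the groups of all 38 genes. It lies on chromosome 16 from 31393335 to 31426505, 10.3 kb beyond ITGAX. Its gene body was covered by 100% in both siANP32B libraries and by 35.2% and 2.01% in siControl libraries, a mean of 100% ± 0 against 18.6% ± 23.4 (SD, n = 2 each) and a difference of 81.4 percentage points. Both siANP32B libraries lay far above both siControl libraries. In siControl cells the domain over ITGAX ended inside ITGAD, 11.7 and 0.666 kb past its lower-coordinate end, whereas in siANP32B cells 1 domain of 410 and 260 kb ran over ITGAM, ITGAX and ITGAD together. The deposited scores of those long domains were low, at percentile 5.44 and 7.89 of their lists, against 15.1 and 2.28 for the siControl domains over ITGAX. Since 1 domain covers the 3 genes, their values are not independent.

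ITGAE, the alpha subunit that holds lymphocytes in epithelia, differed between replicates instead. It was covered by 27.7% and 0% in siANP32B libraries and by 81.1% and 0% in siControl libraries, so replicate 1 had a domain and replicate 2 had none in either group. ITGB7, whose product pairs with those of ITGAE and ITGA4, was covered by 83.2% in both siANP32B and by 76.9% in both siControl libraries. The groups did not overlap there, but the 6.28 points between them come from a domain edge that moved by a single 1 kb step of the grid.

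Of the alpha genes whose products bind collagen, ITGA10 was covered in all 4 libraries, ITGA11 in both siANP32B libraries, and ITGA1 and ITGA2 in none. ITGA10, an integrin of cartilage cells, was covered by 100% in both siANP32B and by 99.7% and 83.8% in siControl libraries. ITGA11, on chromosome 15 from 68296532 to 68432163 and known from fibroblasts, was covered by 72.3% and 56.8% in siANP32B libraries and by 48.7% and 43.5% in siControl libraries, or 64.5% ± 10.9 against 46.1% ± 3.65 (SD, n = 2 each). The groups of ITGA11 did not overlap. Domains over ITGA11 came in 2 and 1 pieces in siANP32B libraries, the longest of 73 and 77 kb, and in 3 and 2 pieces in siControl libraries, the longest of 28 and 39 kb. ITGA1 was covered by 1.29% in both siANP32B and by 4.26% and 3.55% in siControl libraries, at its edges and in a piece of 6 kb inside the gene.

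Of the alpha genes for laminin receptors, ITGA3 and ITGA7 were covered and ITGA6 was not. ITGA3, whose product binds laminins of epithelia, was covered by 100% in all 4 libraries, inside domains of 520 and 279 kb in siANP32B and of 247 and 252 kb in siControl libraries that also hold the homeobox genes DLX3 and DLX4 and the kinase gene PDK2. ITGA7, the laminin receptor subunit of muscle, was covered by 79.8% and 86.1% in siANP32B and by 82.9% and 100% in siControl libraries. ITGA6, which pairs with ITGB1 or ITGB4 products, was covered by 21.1% and 7.16% in siANP32B and by 2.10% and 22.3% in siControl libraries, each time by the end of an upstream domain that reached over its start. Replicates of ITGA6 differed by more than the group means did, and the groups of ITGA6 and of ITGA7 overlapped.

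Among alpha genes for receptors that read the RGD motif of fibronectin and related proteins, ITGA2B and ITGA5 differed widely between replicates. ITGA2B, the platelet subunit that pairs with the ITGB3 product, was covered by 100% in both siANP32B libraries and by 100% and 0% in siControl libraries. ITGA5, the fibronectin receptor subunit, was covered by 40.6% and 100% in siANP32B and by 40.6% and 7.25% in siControl libraries, and the siANP32B replicate 2 domain had a score at percentile 2.47 of its list. ITGAV, which pairs with several beta subunits, was covered by 9.85% and 1.04% in siANP32B and by 6.54% and 2.14% in siControl libraries, and ITGA8, an integrin of kidney development and smooth muscle, by 0% in all 4. For ITGA2B, ITGA5 and ITGAV the groups overlapped or tied. ITGA9, whose product binds tenascin and related ligands, was covered by 24.0% and 33.1% in siANP32B and by 32.6% and 21.5% in siControl libraries, in 3 or 4 separate pieces along its 371 kb.

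Beta genes ranged from no cover to full cover. ITGB1, the most shared beta subunit, had no domain in any library, and the nearest one lay 8.77 and 12.8 kb away in siANP32B and 9.77 and 7.77 kb away in siControl libraries. ITGB3, the beta subunit of the platelet and the vitronectin receptors, was covered by 100% in both siANP32B and by 100% and 92.1% in siControl libraries. ITGB4, the beta subunit of hemidesmosomes, was covered by 100% and 0% in siANP32B and by 86.7% and 0% in siControl libraries, and ITGB6, a subunit of an epithelial receptor that activates TGF-beta, by 0% and 100% in siANP32B and by 80.8% and 52.0% in siControl libraries. The ITGB6 domains scored low, at percentile 0.459 in siANP32B replicate 2 and at 1.21 and 5.56 in siControl libraries, and the single siANP32B domain over ITGB4 at 1.60. The groups of both genes overlapped or tied. ITGB5 and ITGB8 stayed under 12% in every library.

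Laminin genes were covered unevenly within each chain type. LAMA3, the alpha chain of epithelial laminin-332 (chromosome 18, 23689453 to 23955066), was covered by 56.3% and 79.7% in siANP32B and by 78.5% and 46.1% in siControl libraries. LAMB3, the beta chain of that laminin, was covered by 60.1% and 38.4% in siANP32B and by 14.4% and 41.1% in siControl libraries. The groups of both genes overlapped.

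LAMC3, a gamma chain of nerve, retina and skin, had the widest gap among laminin genes. It lies on chromosome 9 from 131009174 to 131094473, and 90.6% and 100% of it was covered in siANP32B libraries, against 22.1% and 17.4% in siControl libraries, or 95.3% ± 6.63 against 19.7% ± 3.32 (SD, n = 2 each). Both siANP32B libraries were far above both siControl libraries, by 75.6 percentage points in the mean. In siControl cells the domains ended 18.8 and 14.8 kb past the lower-coordinate end of LAMC3, and in siANP32B cells they went on to 86.8 and 85.8 kb, past its other end, with a gap of 8 kb in replicate 1. The score percentiles of the siANP32B domains were 64.2 and 29.4 for the pieces of replicate 1 and 6.39 for the domain of replicate 2, against 54.3 and 32.7 in siControl libraries.

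LAMA5, the most widely used laminin alpha chain of epithelia and vessels, was covered by 53.8% and 67.5% in siANP32B libraries and by 36.6% and 0% in siControl libraries, or 60.6% ± 9.71 against 18.3% ± 25.9 (SD, n = 2 each). The groups did not overlap, and siControl replicate 2 had no domain there at all. LAMB4, a beta chain gene, was covered by 100% in all 4 libraries, and LAMB1 beside it, the beta chain of most laminins, by 0% in both siANP32B and by 0.203% and 12.8% in siControl libraries. A domain of 131 and 209 kb in siANP32B and of 187 and 154 kb in siControl libraries covered LAMB4, and it ended within 1 kb of the start of LAMB1 or, in siControl replicate 2, 10.2 kb inside it. LAMC1, the gamma chain of most laminins, had at most 0.476% covered, LAMB2 at most 8.80%, and LAMA2, the laminin alpha chain of muscle, 0% and 19.9% in siANP32B against 12.8% and 3.16% in siControl libraries.

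Read as protein partners, by a list of pairs and trimers written from textbook knowledge after the values were seen, covered genes met in a few receptors. Of 24 integrin pairs, both genes were covered in both siANP32B libraries for 5 and in both siControl libraries for 3. The 3 are those of ITGB2 with ITGAL, ITGAM and ITGAX, and the other 2 those of ITGB2 with ITGAD and of ITGB3 with ITGA2B. ITGAM, ITGAX and ITGAD share a domain in each of the 4 libraries, so the pairs that hold them are not independent in either group. Of other receptors of white blood cells, the pairs of ITGB7 with ITGA4 and with ITGAE had only ITGB7 covered, and that of ITGB1 with ITGA4 had neither gene covered. For 12 pairs neither gene was covered in both siANP32B libraries, and for 12 neither was in both siControl libraries. Many of the pairs hold ITGB1, which had no domain in any library, so these could not have both genes covered. Of 5 laminin trimers, none had all its genes covered in either group. All but the trimer with LAMA3 and LAMB3 hold LAMB1 and LAMC1, neither of them covered in any library. Their outcome was thus set by these genes and adds nothing to the values above.

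Summed over the family, the covered length did not separate the groups. Domains covered 1152.5 and 1398 kb of the summed 3986 kb of gene bodies in siANP32B libraries and 1278 and 889 kb in siControl libraries, or 1275 ± 174 kb in siANP32B against 1084 ± 275 kb in siControl libraries (SD, n = 2 each). The difference of 192 kb is smaller than the SD of the siControl libraries, and without siControl replicate 2 it was -2.81 kb. The share of the summed length was 28.9% and 35.1% in siANP32B and 32.1% and 22.3% in siControl libraries, beside 15.97% and 14.9% in siANP32B and 13.4% and 11.7% in siControl libraries over all protein-coding genes.

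Gene by gene, the covered share was higher in both siANP32B than in both siControl libraries for 9 of the 38 genes (23.7%) and lower for 2 (5.26%). Over all protein-coding genes these percentages were 8.99% and 2.93%, and over those of 50 kb or longer 13.7% and 4.48%. Among the 9 were ITGAD, LAMC3, LAMA5, ITGA11, ITGAM, ITGA10, ITGB7 and ITGB5, and the 2 were ITGA1 and LAMB1. With a gap of at least 5 points between the groups, 7 were higher, beside 6.34% of all protein-coding genes and 7.82% of those of 50 kb or longer, ITGA10 and ITGB5 dropping out. None was lower by that margin, beside 1.86% and 2.06%. For each of the 11 genes the two-sided exact permutation p was 0.333, the smallest that 2 libraries against 2 can give, so no single gene could pass a test. When only domains with a deposited score of at least 97.7 were kept, a filter that removes more of the lower-scored siANP32B lists, none of the 38 genes was higher and 5 were lower in siANP32B libraries. ITGA11 then stood at -25.8 and ITGAM at -21.9 percentage points. No domain over ITGAD or LAMC3 reached a score of 97.7 in any library, so their differences became 0 with nothing left to compare. With equal numbers of best-scored domains per library, 3 genes were higher and 2 lower. The shares over all protein-coding genes were not computed under either filter, so these filtered counts stand without a background. ITGAD then stood at 0 and LAMC3 at 15.7 points, and the difference in summed covered length stayed positive at 157 kb. The direction of the domain comparison thus depends on which score filter is used. Both filters also removed the siControl domains over ITGAD and LAMC3. The filters therefore do not test the wide gaps of these genes.

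**Figure D3:**
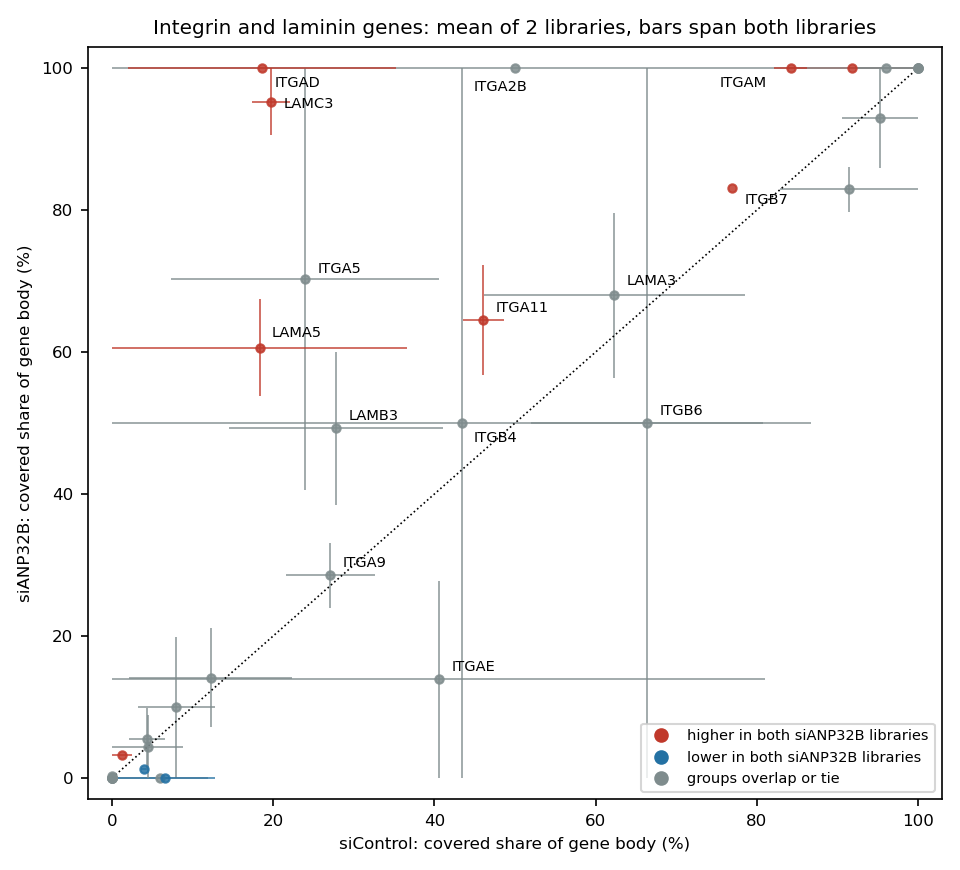
Covered share of the gene body (%), siANP32B (vertical axis) against siControl (horizontal axis), for 37 of the genes. Points are means of 2 libraries, bars run between both libraries and the dotted line marks equal shares. ITGAD and LAMC3 sit far above the line with short vertical bars, while the vertical bars of ITGB4 and ITGB6 run over the whole axis.

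**Figure D4:**
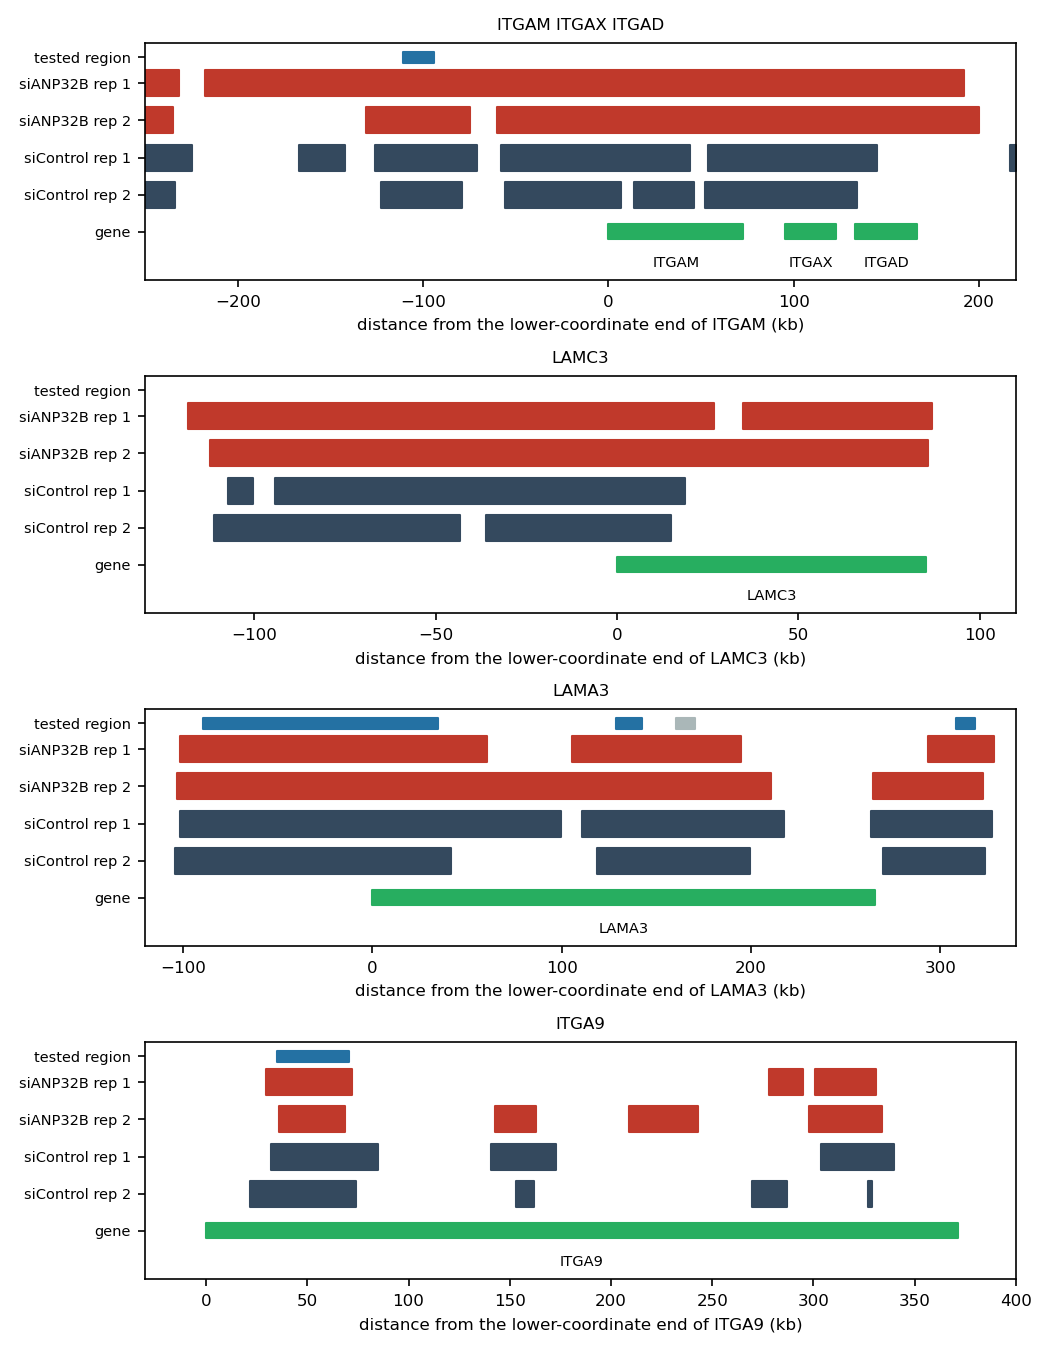
Domains in the 2 siANP32B libraries (red) and the 2 siControl libraries (dark) along 4 places, in kb from the lower-coordinate end of the named gene, with gene bodies in green and regions of the authors' deposited table on top (blue, lower after siANP32B; grey, not past the false discovery rate). The domain over ITGAM and ITGAX runs on over ITGAD, and that beside LAMC3 over the whole gene, in the siANP32B libraries. LAMA3 and ITGA9 keep their domains in all 4 libraries under the lower regions.

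Where the authors tested the level of macroH2A1, these genes were lower or did not pass. In the authors' deposited table, 10 of the 4474 regions overlapped 8 of the 38 genes (21.1%, beside 9.25% of all protein-coding genes and 14.6% of those of 50 kb or longer). With the false discovery rate held at 0.05, 6 of the 10 regions of the authors' deposited table were lower (60%), beside 58.4% of all regions, and none was higher, beside 3.82%. Counted by gene, 6 of the 8 genes in the authors' deposited table overlapped a lower region, beside 60.7% of all protein-coding genes with a tested region, and none a higher one, beside 5.83%. Of all 38 genes that is 15.8% with a lower region in the authors' deposited table, beside 5.62% of protein-coding genes and 8.49% of those of 50 kb or longer, and 0 with a higher one, beside 0.539%. The median log2 fold of the 10 regions in the authors' deposited table was -0.54, the same to 2 decimals as that of all regions, so as a set they did not stand out.

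ITGA9 had the lowest fold of the 10 regions. The region lies inside the gene on chromosome 3, from 37487001 to 37523000 (36 kb, hg38), 34.9 to 70.9 kb from the lower-coordinate end of the gene at 37452141. The log2 fold of its representative window in the authors' deposited table was -1.50 (false discovery rate 3.06e-17), which leaves 35.2% of the siControl signal. All of its 26 windows were down in the authors' deposited table, and its fold ranked 9 from the lowest of 4474. The region stayed in domains, with 100% and 91.7% of it covered in siANP32B and 100% in both siControl libraries. The domain over it was 42 and 33 kb long in siANP32B libraries and 53 and 52 kb in siControl libraries, so it was shorter in both siANP32B libraries. No other region of the authors' deposited table overlaps the 371 kb gene.

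LAMA3 overlapped 3 tested regions. The widest, on chromosome 18 from 23600001 to 23724000 (124 kb), covers the first 34.5 kb of the annotated gene and continues over the neighbouring gene ANKRD29, and had a log2 fold of -1.01 (false discovery rate 7.89e-06) with 61 of 92 windows down in the authors' deposited table. A 14 kb region further in, from 23818001 to 23832000, had -0.54 (false discovery rate 0.0230) with 4 of 5 windows down, and a 10 kb region from 23850001 to 23860000 had -0.22 (0.332) in the authors' deposited table. The 3 regions were covered by 100% in all 4 libraries, so the lower folds came without loss of the domain.

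At LAMB4 and LAMB1 a single region was shared. It runs on chromosome 7 from 108002001 to 108075000 (73 kb), with 63.3 kb in LAMB4 and 1.16 kb at the start of LAMB1, and had a log2 fold of -0.82 (false discovery rate 0.000628) with 25 of 64 windows down in the authors' deposited table. A further 30 kb in LAMB4, from 108081001 to 108111000, had -0.44 (0.195) in the authors' deposited table. None of its 20 windows was counted there as down or up. A window with a negative fold is thus not always counted as down. The shared region was covered by 97.3% in both siANP32B and by 98.6% and 100% in siControl libraries.

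ITGA11 and ITGA3 each held a small lower region. The ITGA11 region of 20 kb on chromosome 15, from 68388001 to 68408000, had a log2 fold of -0.63 (false discovery rate 0.00272) with all 11 windows down in the authors' deposited table, and the ITGA3 region of 10 kb on chromosome 17, from 50078001 to 50088000, rests on 1 window with -0.54 (0.00354) in the same table. ITGA11 thus had a lower level in this region while more of its body was in domains after siANP32B. The ITGA11 region itself was covered by 100% in both siANP32B and by 55% and 100% in siControl libraries. ITGA7 was the exception in sign, with +0.51 over 22 kb (0.102) and no window past the threshold, and ITGB2 had -0.37 over 13 kb (0.202) in the authors' deposited table.

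**Figure D5:**
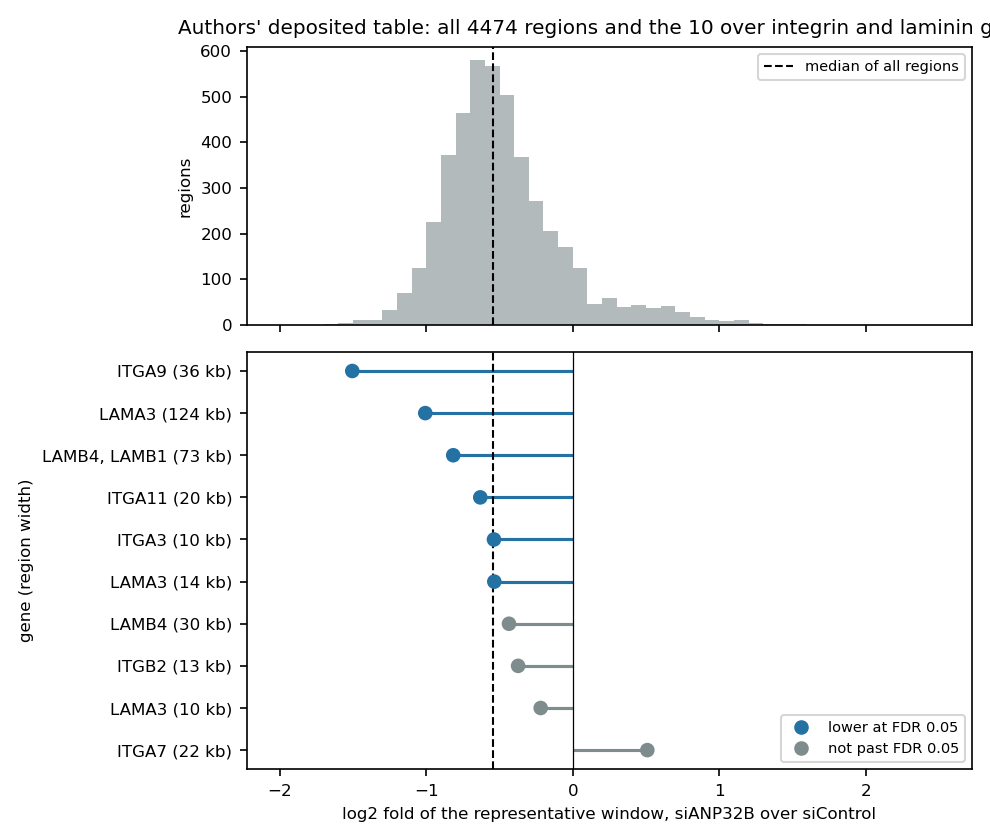
Log2 folds (siANP32B over siControl) of the authors' deposited table. The upper panel is a histogram of all 4474 regions with the median dashed, and the lower panel shows the 10 regions over integrin and laminin genes. ITGA9, at -1.50, lies in the far left tail, ITGA3 and the 14 kb region of LAMA3 at the median, and ITGA7 alone is above 0.

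The tested regions cover only a part of the domain sequence of these genes. Of the 761 kb that lay in domains of both siControl libraries over the 38 genes, 233 kb (30.6%) were in a region of the authors' deposited table. Of the 7 genes whose covered share was higher by over 5 points, ITGA11 was the only one with a tested region, so for genes such as ITGAD, LAMC3, LAMA5, ITGAM and ITGB7 the table gives no level. The sign of the folds is not named in the authors' deposited table; positive was read as higher after siANP32B. Regions with a positive fold lay in domains for at least 50% of their length in 96.5% and 97.1% of cases in siANP32B libraries, against 90.1% and 84.9% in siControl libraries. For regions with a negative fold it was 91.4% and 92.7% in siANP32B against 95.5% and 93.5% in siControl libraries, a smaller contrast. The sources used here do not give the scaling between libraries, and another scaling would shift every fold alike.

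Genes that work with integrins inside the cell held some of the lower regions too. Of 37 adhesion machinery genes, 7 had a region in the authors' deposited table, 5 a lower and none a higher one, with a median log2 fold of -1.08 beside -0.54 for all regions. Of all protein-coding genes, 9.25% had a region in the authors' deposited table, 5.62% a lower and 0.539% a higher one. Of those of 50 kb or longer, 14.6% had a region in the authors' deposited table and 8.49% a lower one. Among the protein-coding genes with a region in that table, 60.7% had a lower and 5.83% a higher one. In the authors' deposited table the adhesion kinase gene PTK2B had a log2 fold of -1.61 (false discovery rate 1.40e-20), the scaffold gene NEDD9 -1.37 (2.49e-12), the talin gene TLN2 -1.30 (5.24e-10) and the tensin gene TNS4 -1.08 (1.26e-08), the last with 2.62 of 50 kb inside the gene. Covered in both siANP32B libraries were 5 of the 37 and in both siControl libraries 4, beside 17.2% and 13.7% of all protein-coding genes. A higher covered share in both siANP32B libraries was seen for 4, beside 8.99%, and a lower one for 2, beside 2.93%. TNS4 was covered by 100% in all 4, and FLNC, a filamin of muscle, by 100% in both siANP32B and by 81.7% and 61.0% in siControl libraries.

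Other ligands of integrins, in the matrix or on cells, were read against the same background. Of 28 such genes, 8 had a region in the authors' deposited table, 6 a lower and none a higher one, beside 9.25%, 5.62% and 0.539% of all protein-coding genes. Among all protein-coding genes with a region in that table, 60.7% had a lower and 5.83% a higher one. Named by the smallest false discovery rates in the authors' deposited table were CDH1, the ligand of the ITGAE pair, at -0.89 (false discovery rate 1.63e-06), EDIL3 at -0.85 (7.78e-06), THBS1, thrombospondin 1, at -0.87 (0.000153) and CCN2 at -0.69 (0.00110). The CCN2 region has only 3.20 of its 81 kb inside the gene. Covered in both siANP32B libraries were 7 of the 28, beside 17.2% of all protein-coding genes, and in both siControl libraries 6, beside 13.7%. A higher covered share in both siANP32B libraries was seen for 4, beside 8.99%, and a lower one for 1, beside 2.93%. THBS2, another thrombospondin, was covered by 100% and 0% in siANP32B libraries and by 100% in both siControl libraries, and TNXB, a tenascin, by 90.0% and 0% in siANP32B and by 100% in both siControl libraries.

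Of 30 genes for partners of laminin in the basement membrane, 10 had a region in the authors' deposited table, 5 a lower and none a higher one, again beside 9.25%, 5.62% and 0.539%. The 5 of 10 with a lower region stand beside 60.7% of all protein-coding genes with a region in that table. The collagen IV genes COL4A2 (-0.70, false discovery rate 0.00141) and COL4A1 (-0.64, 0.00554), the netrin gene NTN5 (-0.60, 0.0175, with 5.59 of 18 kb inside the gene) and COL18A1 (-0.79, 0.00187, with 1.84 of 75 kb inside the gene) were among these in the authors' deposited table. Of the 30, 7 were covered in both siANP32B libraries and 3 in both siControl libraries, beside 17.2% and 13.7% of all protein-coding genes. The covered share was higher in both siANP32B libraries for 6, beside 8.99%, and lower for none, beside 2.93%. SDC3, a syndecan gene, was covered by 100% in both siANP32B and by 72.7% and 63.9% in siControl libraries.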

How the data were processed

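macroH2A1 CUT&RUN of HepG2 cells was read from 4 domain lists, called by the authors per library, and from the authors' deposited table of regions. The submitters' processing notes name edgeR, SICER, deepTools, SAMtools, Bowtie2 and Trim Galore, and the build hg38. The sources used here give neither versions nor settings. The deposited domain score is the caller's own, and domains were ranked or filtered by it and nothing else. Per the file headers, the deposited table gives each region's p-value and false discovery rate (equal to a Benjamini-Hochberg adjustment over all 4474 regions, largest difference 1.11e-15), a representative window's fold, read as log2 as in edgeR, and whole numbers of windows. It gives no value per library (0 such columns were left unused), so no count test was possible.

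Domain ends were set on their 1 kb grid, and the covered share of each RefSeq gene span was computed in bases (Python 3.11.15, numpy 2.4.6, pandas 2.3.3, scipy 1.17.1), after a check on simulated intervals. Regions count as overlapping a gene from 1 base. Each gene span is the longest annotated extent, with no exons or isoforms. Single genes were compared by a two-sided exact permutation test over libraries. Groups follow the labels, without pairing of replicate numbers. Members were set by symbol; 1 is in the counts and sums but not reported here by itself or drawn; further genes come from 3 lists, by up to 4 smallest deposited false discovery rates and up to 4 largest covered shares in both siControl libraries each. The promoters shown follow a rule on covered and long genes. Members and lists were chosen with earlier results of these data known. Alternatives were leaving out each library, score filters, other cover and overlap thresholds, 10 kb flanks and leaving out chromosomes gained in HepG2.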

Additional observations from a re-analysis of the deposited data

How the results depend on the processing

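Leaving out 1 library at a time, the genes covered in both siControl libraries ranged from 12 to 16 and those covered in both siANP32B libraries from 17 to 19. Genes with a higher share ranged from 11 to 14, genes with a lower share from 3 to 6, and starts under a domain in both siControl libraries from 10 to 16. With a library left out, "both" means the 1 that remains in that group. Each of these counts could then only stay or rise, so the ranges do not show stability. The difference in covered length could move either way. It ranged from -2.81 kb, without siControl replicate 2, to 386 kb, without siControl replicate 1. With only domains above a common deposited score, 2 genes were covered in both siANP32B and 4 in both siControl libraries, 0 had a higher and 5 a lower share, 4 starts lay under a domain, and the difference was -95.2 kb. ITGA11 then turned to -25.8 and ITGAM to -21.9 points. With equal numbers of best-scored domains, 4 genes were covered in both siANP32B and 4 in both siControl libraries. A higher share was left for 3 genes and a lower one for 2, and 4 starts lay under a domain. The difference in covered length was 157 kb, and ITGAM stood at -21.9 points. The cause was not tested, and the shares over all protein-coding genes were not computed under these score filters. Chromosomes 2, 14, 16, 17 and 20, gained in HepG2, hold 14 of the 38 genes. Of the 24 genes on other chromosomes, 9 were covered in both siANP32B and 6 in both siControl libraries. Of all 38 genes, 17 and 12 were. Without the gained chromosomes 6 starts lay under a domain. Why the covered genes lay as they did was not tested. With a gap of at least 5 points 0 genes had a lower share. Counts of genes with lower or higher regions, and the median fold, stayed within 1.5 times, or at the same value to 2 decimals, in the alternatives run. With the replicate number as a block the difference in covered length was the same 192 kb. It was -126 kb within number 1 and 509 kb within number 2. The labels do not say what a number shares, and the replicate deviations of the groups correlated at 0.07 over 10636 protein-coding genes with a domain, so the numbers were not taken to pair the libraries. Read depth is not in the files and limits every statement on a missing domain.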

Other observations

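Some genes with little cover had a domain that stopped beside their start, and these examples were chosen after the values were seen. The domain upstream of ITGAV ended 8.94 and 0.944 kb past its start in siANP32B and 5.94 and 1.94 kb past it in siControl libraries. The domain next to LAMC1 ended 0.580 kb past and 1.42 kb before the start in siANP32B libraries and 0.420 and 2.42 kb before it in siControl libraries. The domain over LAMB4 ended 0.840 kb before the start of LAMB1 in both siANP32B and 0.160 and 10.2 kb past it in siControl libraries. For ITGA2 the nearest domain ended 1.35 and 4.35 kb before the start in siANP32B and 0.352 and 5.35 kb before it in siControl libraries. A domain edge lay within 5 kb of the start in any library for 13 of the 26 genes with a placed start, beside 32.0% of protein-coding genes with an entry, and in all 4 libraries for 2, ITGA10 and LAMC1, beside 3.62%. These counts take in covered genes such as ITGA10, LAMB4 and ITGA2B. Of the 5 genes with a placed start and no domain in any library, ITGA2 was the only one with an edge that close, and at ITGA4, ITGA8, ITGB1 and LAMA4 no library had one. No test of this was made.

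Replicates disagreed on whole genes at about the usual rate. Between the 2 siANP32B libraries 3 of the 38 genes differed by over 50 points (7.89%), beside 8.95% of protein-coding genes, and between the 2 siControl libraries 3 did (7.89%), beside 7.43%.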
